A study of Rattus norvegicus with 8 samples.

Results

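Voltage-gated calcium channel subunits were examined through 10 genes, each chosen by its RefSeq record: Cacna1a (NM_012918), Cacna1b (NM_147141), Cacna1c (NM_012517), Cacna1d (NM_017298), Cacna1e (NM_019294), Cacna1g (NM_031601), Cacna1h (NM_153814), Cacna2d1 (NM_012919), Cacnb2 (NM_053851) and Cacnb3 (NM_012828). All 10 were found among the 18314 records of the files, and all 10 passed the filter on low counts. Of these, 7 encode pore-forming α1 subunits and 3 encode auxiliary subunits. The NM_017298 record was not paired with a symbol by the reference table used here, and its name is that given with the record when the genes were chosen.

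The RNA came from the right stellate ganglion, a sympathetic ganglion that supplies the heart. The spontaneously hypertensive rat (SHR) was represented by 4 animals and the Wistar strain by 4, each 16 weeks old and each giving 1 library. The study's methods state that all were male and that the SHR had established hypertension. The Wistar rat served as the normotensive control in place of the Wistar Kyoto strain, which was derived from it. The paper's grounds were that both strains have similar haemodynamic profiles and that neither showed the sympathetic calcium phenotype of SHR. Strain ancestry and hypertension cannot be told apart in this design. The sample labels give the library kit as stranded mRNA and the extraction kit as a micro format, whereas the study's methods describe SMARTer amplification and a different extraction kit.

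Voltage-gated calcium channels open on depolarisation and admit the calcium that drives transmitter release, excitability and gene expression. The α1 subunit forms the pore and sets the current type, while α2δ and β subunits bring the channel to the membrane and shape its gating. In postganglionic sympathetic neurons N-type current is the main trigger of noradrenaline release, L-type current is coupled to spiking and to signalling to the nucleus, and T-type current operates near the resting potential.

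The whole ganglion was sequenced. Estimated counts summed to between 25820299 and 35509074 per rat. Sympathetic neuron markers were abundant in every rat: 13 of the 14 listed genes were matched, none was at 0, 0 passed the strain test by edgeR (1 at an unadjusted p under 0.05, 1 by DESeq2), and their summed level was 37625 to 43828 TPM (a transcript level scaled for length and depth) in Wistar and 37789 to 43764 TPM in SHR. Npy alone ran from 14141 to 21579 TPM. Satellite glia and Schwann cell markers were also present, at summed levels of 633 to 831 TPM and 1669 to 2276 TPM. Of the Schwann cell sum, Pmp22 alone gave 1378 to 1939 TPM. SHR replicates 3 and 4 stood apart from the other 6 rats in low macrophage markers, with summed TPM of 19.2 and 28.2 against 48.2 to 91.0, and in the summed level of the vascular smooth muscle list, which is nearly all Tagln, with 17.4 and 26.5 against 55.5 to 127. SHR replicates 3 and 4 were also the highest rats for the glial genes Sox10 and Cdh19 and the neuronal gene Slc6a2, but not for the glial genes Fabp7 and S100b. Their summed glial and neuronal levels lay within those of the other rats. Wistar replicate 1 and SHR replicate 1 had the highest adipocyte marker sums, 65.3 and 150 TPM against 6.57 to 24.9 in the other rats. In whole tissue, fewer cells of a type and less RNA per cell cannot be told apart.

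Levels were compared between genes in TPM. Transcripts of 2 auxiliary subunits were more abundant than those of any pore. Cacnb3 had the highest mean, 38.0 ± 7.80 TPM in Wistar and 32.8 ± 6.87 TPM in SHR (SD, n = 4 each), followed by Cacna2d1 with 25.2 ± 3.19 and 24.1 ± 6.80 TPM. The ranges of these 2 genes overlapped in each strain. Cacna1b, encoding the N-type pore, was the most abundant α1 transcript in all 8 rats, at 2.002 ± 0.16 TPM in Wistar and 2.68 ± 0.69 TPM in SHR, and its range overlapped that of Cacnb2. Below Cacna1b the order differed between the strains. In Wistar it was Cacna1c, Cacna1d, Cacna1a, Cacna1e, Cacna1g and Cacna1h, where only the steps below Cacna1d and below Cacna1g lay outside the spread of the 4 rats. In SHR it was Cacna1d, Cacna1a, Cacna1e, Cacna1g, Cacna1c and Cacna1h, where only the step to Cacna1h did. Cacna1c thus ranked 5 of the 10 members in Wistar and 9 in SHR.

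**Figure D1:**
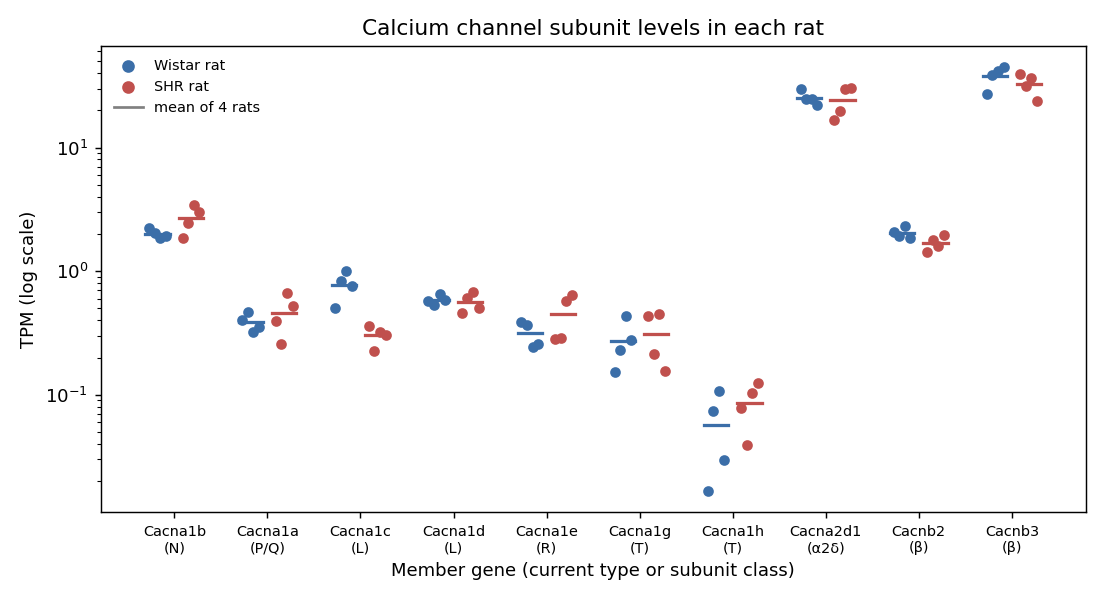
TPM of each member gene (log axis) in each of 4 Wistar (blue) and 4 SHR (red) rats; points are rats and lines are means of 4 rats. Cacna1c is the member whose points separate by strain, with 0.500 to 1.01 TPM in Wistar and 0.226 to 0.361 TPM in SHR.

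The strains were compared on the estimated counts with edgeR's quasi-likelihood test, with p-values adjusted over the 13659 records tested and a threshold of 0.05. Log2 fold changes are SHR over Wistar, with their 95% intervals. Of the 10 members, 1 passed and it was lower in SHR, against 2.85% of all records tested in either direction, 1.69% lower and 1.16% higher. This count of 1 in 10 is too small to set the members apart from the other records. The point estimates were above 0 for 5 members and below 0 for 5, and their median was 0.06, beside 0.01 for all records tested. Normalised counts, scaled to a common library size, did not overlap between the strains for 1 member, against 10.6% of all records.

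**Figure D2:**
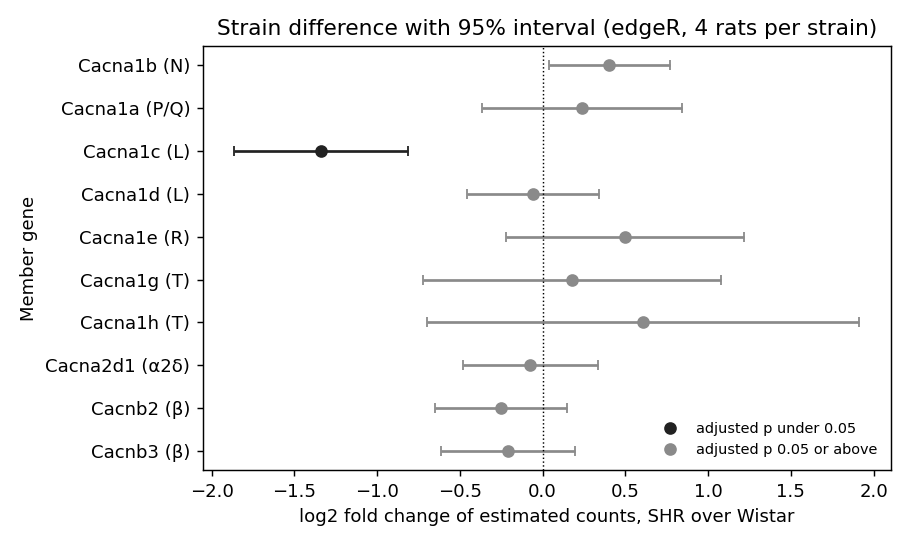
Log2 fold change of each member (SHR over Wistar) with its 95% interval from edgeR, 4 rats per strain. Cacna1c, in black, lies at -1.34 and is the member past the adjusted threshold; the intervals of 8 members span 0, and that of Cacna1b lies just above it.

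Cacna1c encodes the L-type pore that is best known from heart, smooth muscle and neurons. Its level was 0.500, 0.830, 1.01 and 0.759 TPM in Wistar replicates 1 to 4 and 0.361, 0.226, 0.319 and 0.302 TPM in SHR replicates 1 to 4. Every SHR rat lay below every Wistar rat. In normalised counts the Wistar mean was 177 ± 42.4 and the SHR mean 70.04 ± 12.96 (SD, n = 4), a log2 fold change of -1.34 (SE 0.24, interval -1.86 to -0.81) with an adjusted p = 0.0140 by edgeR. This corresponds to a level 2.53 times higher in Wistar, with an interval of 1.75 to 3.64. The reads behind it were few, 43 to 86 counts per SHR rat and 127 to 243 per Wistar rat, and every one of its estimated counts was a whole number. The call did not survive every rat being left out: the edgeR adjusted p was 0.0580 without Wistar replicate 2, 0.0584 without Wistar replicate 3 and 0.0560 without SHR replicate 4, while the log2 fold change stayed between -1.49 and -1.20 over all 8 such fits.

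Smooth muscle, in which Cacna1c is also transcribed, was followed by 5 markers, of which 0 passed the strain test by edgeR (0 at an unadjusted p under 0.05, 0 by DESeq2) and 0 were at 0 in every rat. Their sum was carried by Tagln, with 51.1, 117, 104 and 121 TPM in Wistar replicates 1 to 4 and 120, 103, 13.6 and 21.9 TPM in SHR replicates 1 to 4. The other 4 markers were low in every rat. Acta2 had 2.54, 4.37, 3.74 and 1.79 TPM in Wistar replicates 1 to 4. In SHR replicates 1 to 4 it had 3.53, 2.08, 0.877 and 1.90 TPM. Replicates 3 and 4 were thus the lowest SHR rats for Acta2, as for Tagln, although Wistar replicate 4 was below SHR replicate 4. Myh11, Des and Cnn1 did not share that pattern. Myh11 had 1.08 to 2.44 TPM in Wistar and 0.869 to 1.98 TPM in SHR. Des had 0.285 to 0.875 TPM in Wistar and 0.248 to 1.53 TPM in SHR, whereas Cnn1 had 0.124 to 0.284 TPM in Wistar and 0.297 to 0.583 TPM in SHR, with no overlap. All 5 are given because single markers differed, and the part of smooth muscle content in the Cacna1c difference was not tested. Without SHR replicates 3 and 4, a comparison added after the data were seen, the log2 fold change was -1.30 (interval -2.06 to -0.54) and the edgeR adjusted p = 0.111, when 1.66% of records were called with only 2 SHR rats.

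Cacna1d, encoding the other neuronal L-type pore, which opens at more negative potentials, gave 0.573, 0.528, 0.648 and 0.584 TPM in Wistar and 0.462, 0.601, 0.673 and 0.499 TPM in SHR. The strains overlapped, and the log2 fold change was -0.06 (interval -0.46 to 0.34, edgeR adjusted p = 0.907). Cacna1c exceeded Cacna1d in 3 of 4 Wistar rats and was below it in 4 of 4 SHR rats. Cacna1c made up 46.6%, 61.1%, 60.9% and 56.5% of the TPM of this L-type pair in Wistar replicates 1 to 4 and 43.9%, 27.3%, 32.2% and 37.7% in SHR replicates 1 to 4. These ranges were apart, with means of 56.3% ± 6.78 and 35.3% ± 7.15 (SD, n = 4). The share rests on 2 genes within a rat and is therefore free of scaling between libraries, but it holds the same Cacna1c reads as the test above and is given as a description.

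**Figure D3:**
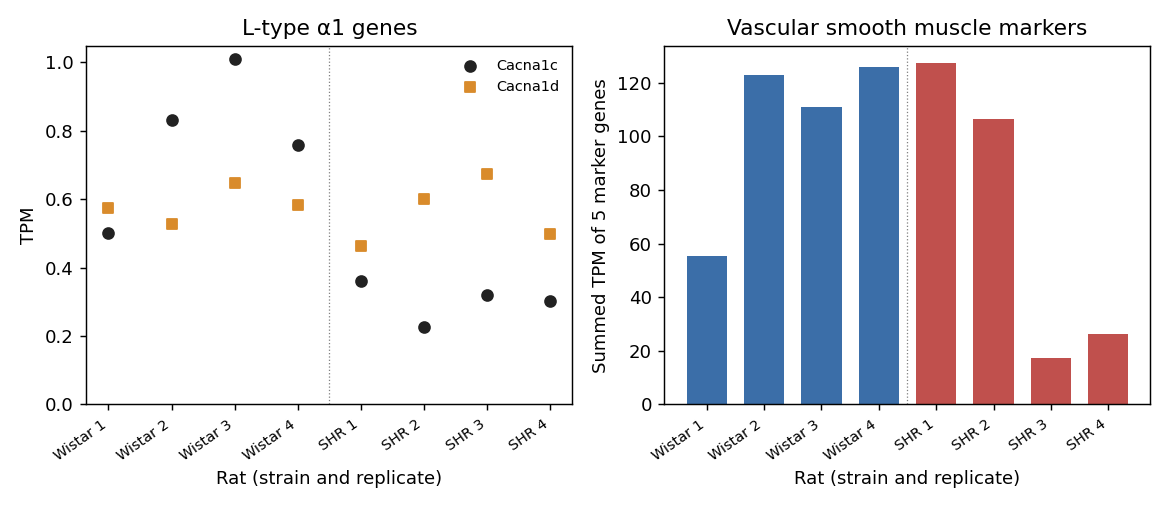
Left, TPM of Cacna1c (black circles) and Cacna1d (orange squares) in each rat; right, bars of the summed TPM of 5 vascular smooth muscle markers in the same rats, Wistar blue and SHR red. Cacna1c is below Cacna1d in all 4 SHR rats. The marker sum, which is nearly all Tagln, is 17.4 and 26.5 TPM in SHR replicates 3 and 4 and 55.5 to 127 TPM in the other rats.

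Cacna1b, the N-type pore, had 2.22, 2.03, 1.85 and 1.91 TPM in Wistar replicates 1 to 4 and 1.84, 2.46, 3.45 and 2.98 TPM in SHR replicates 1 to 4. SHR replicates 2, 3 and 4 were above every Wistar rat, while SHR replicate 1 was the lowest of all 8 in TPM. The log2 fold change was 0.40 (SE 0.17, interval 0.04 to 0.77), the unadjusted p = 0.0345 in edgeR and the adjusted p = 0.255, so that Cacna1b did not pass. It passed when replicate 1 of each strain was left out, with 0.61 and an edgeR adjusted p = 0.0193, but 7.79% of all records were called in that comparison. For Cacna1b these were the highest Wistar rat and the lowest SHR rat, so leaving them out raises the estimate by construction. Without SHR replicates 3 and 4 the log2 fold change was 0.18 (interval -0.21 to 0.58, edgeR adjusted p = 0.697). Replicates 3 and 4 were the highest SHR rats for this gene, so leaving them out lowers the estimate by construction. A second Cacna1b record, NM_001195199, took at most 1.802% of the estimated counts of the gene in any rat.

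Cacna1a encodes the P/Q-type pore and Cacna1e the R-type pore, both of which can also feed transmitter release. Cacna1a had 0.402, 0.469, 0.321 and 0.352 TPM in Wistar and 0.392, 0.257, 0.670 and 0.525 TPM in SHR, and Cacna1e had 0.388, 0.365, 0.244 and 0.256 TPM in Wistar and 0.281, 0.288, 0.575 and 0.640 TPM in SHR. For both genes SHR replicates 3 and 4 were the highest of the 8 rats, whereas SHR replicates 1 and 2 fell within or below the Wistar range. The log2 fold changes were 0.24 (interval -0.37 to 0.84, edgeR adjusted p = 0.695) for Cacna1a and 0.50 (interval -0.22 to 1.22, edgeR adjusted p = 0.462) for Cacna1e. The interval of Cacna1e runs up to 2.33 times the Wistar level, and a difference of up to that size was not excluded with these rats. Without SHR replicates 3 and 4 both estimates were below 0, at -0.16 and -0.05. As these were the highest of the 8 rats, leaving them out lowers the estimates by construction.

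The T-type pores were among the rarer members, and Cacna1h had the lowest mean level of all 10 in both strains. Cacna1g had 0.154, 0.232, 0.434 and 0.275 TPM in Wistar and 0.431, 0.215, 0.446 and 0.157 TPM in SHR, with a log2 fold change of 0.18 (interval -0.72 to 1.08, edgeR adjusted p = 0.858). The spread within each strain was about as wide as the whole range of the gene. Cacna1h gave 4 to 25 counts per Wistar rat and 7 to 29 per SHR rat, or 0.017 to 0.107 and 0.039 to 0.125 TPM. Its log2 fold change of 0.61 had an interval from -0.70 to 1.91 (edgeR adjusted p = 0.635), and a difference inside that interval was not excluded at this depth. Cacna1g was the larger of the T-type pair in every rat, with 75.8% to 90.3% of their TPM in Wistar and 55.7% to 84.7% in SHR. In Wistar replicate 1, 28.8% of the Cacna1g estimated counts were given by Salmon to a second record, NM_001308302, and the level of NM_031601 is uncertain to that extent.

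Summed over the 7 α1 members, the level was 4.25, 4.53, 4.61 and 4.17 TPM in Wistar replicates 1 to 4 and 3.84, 4.09, 6.24 and 5.23 TPM in SHR replicates 1 to 4. SHR replicates 1 and 2 were below, and replicates 3 and 4 above, all Wistar rats, and the means of 4.39 ± 0.21 and 4.85 ± 1.10 TPM (SD, n = 4) differed by less than the SHR spread. Without SHR replicates 3 and 4 the ratio of SHR to Wistar was 0.904. It had to be below 1, since SHR replicates 1 and 2 were below all Wistar rats. The make-up of the sum separated the strains for the L type. L-type genes gave 25.2% to 35.9% of it in Wistar and 15.3% to 21.4% in SHR, ranges that did not overlap, with means of 30.8% ± 4.47 and 18.2% ± 3.04. The N-type gene gave 45.7% ± 4.98 in Wistar and 55.1% ± 5.25 in SHR, with SHR replicate 1 at 47.8% inside the Wistar range of 40.1% to 52.2%. P/Q-type shares averaged 8.80% and 9.32%, R-type 7.15% and 8.96% and T-type 7.45% and 8.42%, all with overlapping ranges. Since the shares add up to a whole, a lower Cacna1c level raises the other shares by construction.

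**Figure D4:**
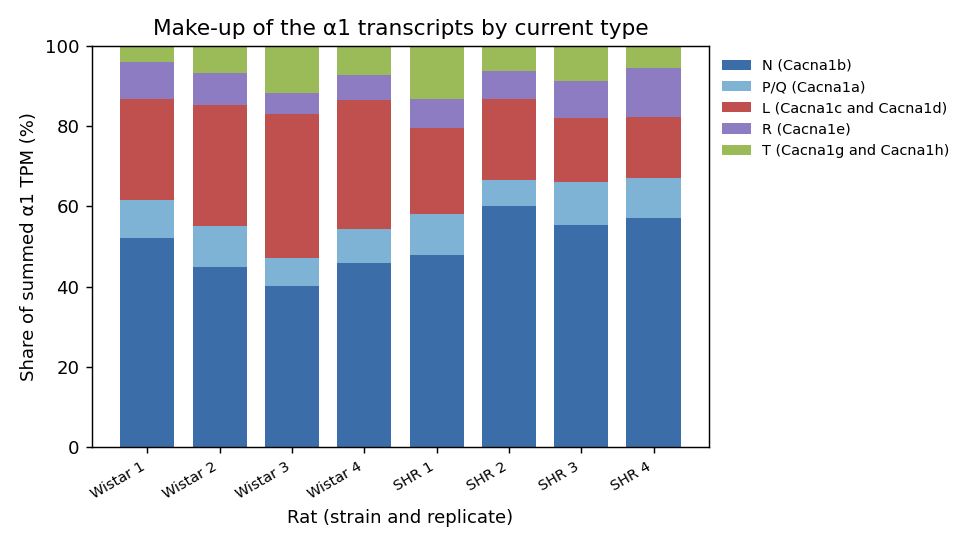
Share of each current type in the summed TPM of the 7 α1 members (percent, stacked bars to 100) in each rat. The L-type band is 25.2% to 35.9% in the 4 Wistar rats and 15.3% to 21.4% in the 4 SHR rats, and the N-type band is the widest in all 8.

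Cacna2d1 encodes α2δ, the gabapentin-binding subunit that carries channels to the membrane. It had 29.6, 24.9, 24.6 and 21.9 TPM in Wistar and 16.8, 19.8, 29.7 and 30.1 TPM in SHR. In TPM, SHR replicates 1 and 2 were the lowest of the 8 rats and replicates 3 and 4 the highest, and the counts gave a log2 fold change of -0.07 (interval -0.48 to 0.33, edgeR adjusted p = 0.874). The SHR rats were spread over a wider range, with a coefficient of variation of normalised counts of 24.5% against 17.3% in Wistar. Counts that Salmon gave to 2 further Cacna2d1 records were at most 0.558% of the gene's total for either record. The pattern of SHR replicates 3 and 4 as the 2 highest SHR rats held for 5 members, Cacna1a, Cacna1b, Cacna1e, Cacna1h and Cacna2d1. The share of all records with this pattern was not computed, so the 5 do not set the members apart. The marker levels in which these rats differed from the others were given above. The part of tissue make-up in these 5 genes was not tested.

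The β subunits bind inside the cell and regulate traffic and inactivation of the high-voltage-activated channels. Cacnb3, the main β transcript here, had 26.9, 38.8, 41.7 and 44.7 TPM in Wistar and 39.2, 31.5, 36.8 and 23.7 TPM in SHR. The lowest rats of each strain, Wistar replicate 1 and SHR replicate 4, lay close together, and the log2 fold change was -0.21 (interval -0.61 to 0.20, edgeR adjusted p = 0.593). Cacnb2, which is prominent in heart, had 2.08, 1.91, 2.30 and 1.86 TPM in Wistar and 1.43, 1.77, 1.59 and 1.96 TPM in SHR. In TPM, SHR replicates 1, 2 and 3 were below all Wistar rats and replicate 4 was within their range, with a log2 fold change of -0.25 (interval -0.65 to 0.14, edgeR adjusted p = 0.499). Cacnb2 made up 5.27% ± 1.37 of the 2 β members' TPM in Wistar and 5.16% ± 1.83 in SHR.

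The remaining 16 genes with subunit symbols of the family place these levels. Of them 13 were tested and 0 passed in either direction by edgeR, with 0 at an unadjusted p under 0.05 and 0 called by DESeq2, and a median log2 fold change of -0.04. The 3 most abundant were Cacng3, a γ family gene, at 11.5 ± 3.35 TPM in Wistar and 7.54 ± 2.91 TPM in SHR, Cacnb4 at 8.42 ± 1.53 and 8.13 ± 2.76 TPM, and Cacnb1 at 4.38 ± 0.71 and 4.15 ± 0.66 TPM. Both β genes were thus above Cacnb2 in mean level and below Cacnb3. The γ genes, Cacng3 among them, were listed by symbol, and their part in calcium channels was not tested. The skeletal muscle pore Cacna1s, the retinal pore Cacna1f and the T-type pore Cacna1i averaged 0.086, 0.155 and 0.069 TPM over the 8 rats, near Cacna1h at 0.072 TPM.

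**Figure D5:**
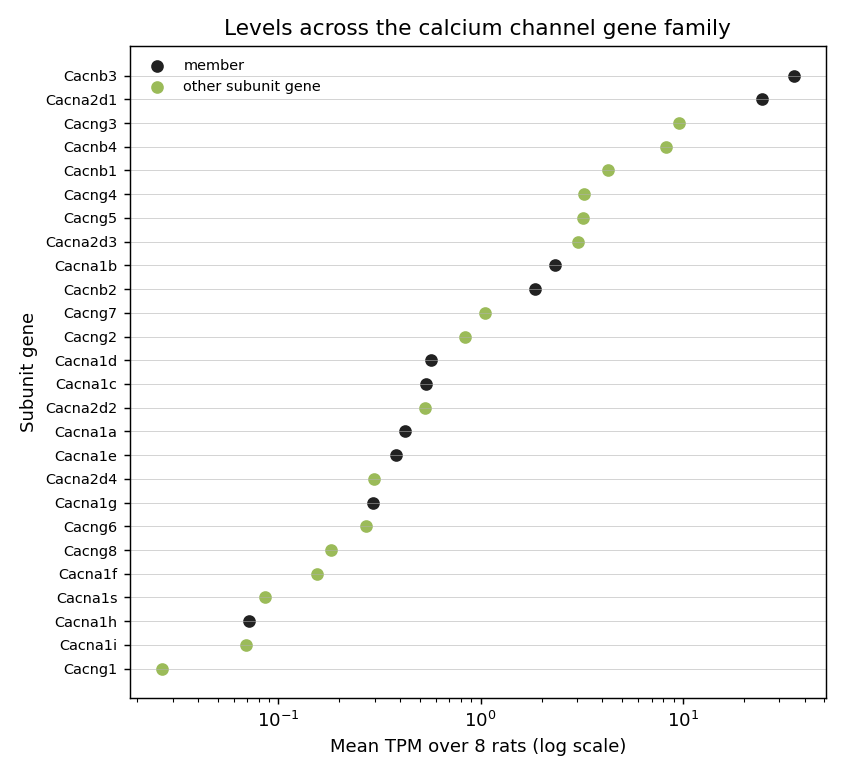
Mean TPM over 8 rats (log axis) of the 10 members (black) and of the 16 other genes listed by subunit symbol (green), ordered by level. Cacnb3 and Cacna2d1 are the highest, at 35.4 and 24.7 TPM, and Cacna1b at 2.34 TPM is the highest pore gene.

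Genes that regulate the channels were followed by a list of 32, of which 28 were matched and 25 tested. In edgeR 0 passed as higher and 2 as lower in SHR, against 1.16% and 1.69% of all records tested. An unadjusted p under 0.05 in either direction was had by 6 of the 25. The share of all records with such a p was not computed, so the 6 do not set the list apart. DESeq2 called 2, beside 782 of the 14961 records it tested. Prkacb, a catalytic subunit of protein kinase A, which phosphorylates L-type channels and their regulators, had 3736, 4346, 3814 and 3676 normalised counts in Wistar and 2479, 2650, 3195 and 2590 in SHR, a log2 fold change of -0.51 (SE 0.10, edgeR adjusted p = 0.0293). Prkar1a, a regulatory subunit of the same kinase, had 20991, 21375, 22915 and 21792 normalised counts in Wistar and 17865, 17163, 17870 and 16572 in SHR, a log2 fold change of -0.33 (SE 0.07, edgeR adjusted p = 0.0460). Both sets of 4 rats were apart. The calls were close to the threshold, since leaving out any 1 of the 8 rats took that of Prkar1a above it, to between 0.0569 and 0.171 (edgeR adjusted p), and leaving out any 1 of 6 rats took that of Prkacb above it, to at most 0.108. Snap25, a release protein that binds presynaptic channels and one of the most abundant genes of the list, had 2509 ± 236 TPM in Wistar and 2204 ± 228 TPM in SHR (SD, n = 4), summed over its 3 records, and its record with the most counts did not pass (log2 fold change -0.10, interval -0.34 to 0.15, edgeR adjusted p = 0.700). Rrad, a small GTPase that restrains L-type current, was singled out after its values were seen: it had 12.9 to 20.2 normalised counts in Wistar and 1.30 to 5.64 in SHR, and a log2 fold change of -1.97 with an interval of -3.07 to -0.86 (edgeR adjusted p = 0.0739).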

How the data were processed

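RNA of the right stellate ganglion of 4 Wistar rats and 4 SHR was analysed. The authors quantified reads with Salmon 0.8.2 against rat RefSeq transcripts; the submitters' notes also name FastQC 0.11.7 and build rn6. The deposited values are an estimated count per record, without scaling between samples, and a TPM; record lengths were used only as an offset and in shares. Depth was 25820299 to 35509074 estimated counts per rat.

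The estimated counts were rounded and tested with edgeR 4.0.16 in R 4.3.3 (glmQLFit default, glmQLFTest, TMM, filterByExpr) on 13659 records, with Benjamini-Hochberg adjusted p under 0.05. The SE was taken as |log2 fold change| over √F. Normalised counts are estimated counts divided by the TMM-scaled library size and multiplied by its mean over the rats. Alternatives used DESeq2 1.42.0, limma 3.58.1 on log2(TPM + 0.1) and log2(TPM + 1), other filters and scalings, a replicate block and left-out rats. The planned permutation tests of shares and sums were left out, and these are given as values. The fit was tested on simulated data.

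The members and lists were chosen with earlier results of these data known. All members were named, and from the 2 pathway lists every gene past the threshold and the 3 with the highest TPM. Of these, 2 regulator genes are not reported here. Marker genes were named where they stand beside a result. A reference table gave symbols to 17360 of 18314 records.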

Additional observations from a re-analysis of the deposited data

Results flagged for a closer look

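A rat far from the other 3 of its strain was looked for in 42 groups of 4 rats, over the members' normalised counts, the shares, the summed α1 level and the 2 regulator genes past the threshold. Chance alone marks about 1 in 20 such groups, and 2 were marked. The P/Q-type share (Cacna1a) of SHR replicate 2 was 6.29%, against 10.03% to 10.8% in the other SHR rats. The Cacna1g share of the T-type pair in SHR replicate 4 was 55.7%, against 81.3% to 84.7% in the other SHR rats, and it rests on 35 counts of Cacna1g and 29 of Cacna1h.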

How the results depend on the processing

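Cacna1c was lower in SHR in all 21 alternatives, with log2 fold changes from -1.61 to -0.44, the latter compressed by a pseudocount of 1. It stayed past the threshold in 14 of them, including DESeq2, and lost the call in 7: with the replicate block (-1.32, adjusted p = 0.130), with limma on log2(TPM + 0.1) (-1.10, 0.0707) and log2(TPM + 1) (-0.44, 0.0637), without SHR replicates 3 and 4 (-1.30, 0.111) and in 3 of the 8 fits that left out 1 rat (-1.49 to -1.20). The number of members past the threshold was therefore 0 in the replicate block, limma and fits without SHR replicates 3 and 4, and 0 to 1 when 1 rat was left out. It was 2 without replicate 1 of each strain, when Cacna1b (0.61) joined. For Cacna1b these were the highest Wistar rat and the lowest SHR rat, so leaving them out raises its estimate by construction. The number of regulators was 2. It was 3 with the newer quasi-likelihood fit and without replicate 1 of each strain. It was 1 with RLE factors, no filter, either limma fit, summed genes or without SHR replicates 3 and 4. In limma that 1 was another gene. Neither Prkacb (limma adjusted p = 0.0753 on log2(TPM + 0.1), 0.0728 on log2(TPM + 1)) nor Prkar1a (0.0787 and 0.0769) passed there. The number of regulators was 0 in the replicate block and 0 to 1 when 1 rat was left out. The cause was not tested. Uncalled members near 0 changed sign: Cacna1d (-0.13 to 0.0136 when 1 rat was left out, 0.0237 without both replicates 1), Cacna1g (-0.0567 to 0.48, -0.24) and Cacna2d1 (-0.20 to 0.0571, 0.17). Without SHR replicates 3 and 4 so did Cacna1a (-0.16) and Cacna1e (-0.0461), and the summed α1 ratio was 0.904. These rats had the highest SHR values for both genes and for the sum, so leaving them out lowers each by construction. The 4 same-number correlations of deviations (-0.29 to -0.04) are too few to show if rats are paired. With the block 132 records were called, against 389 in the main fit. In all 104 alternatives the differences in share moved by less than 1 SD. Leaving out 1 rat, or both replicates 1, cannot move a difference further than that, so those fits do not test stability. Of the 8 differences, 4 kept 1 sign throughout, those of the L and N types, the R type and Cacna1c within the L pair. Over all records DESeq2 called 782, or 852 with a length offset, and leaving out both replicates 1 gave 1068. Cacna1h had too few reads for the filter of 10 counts in every rat, so no value was had there, and the shares have no replicate block since they were not tested. At 4 to 29 counts per rat, depth limits the comparison of Cacna1h.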
